A study of Homo sapiens with 18 samples.

Results

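The genes described here encode the machinery that starts, lengthens, caps and takes apart actin filaments. They were chosen by symbol, from a list of 42 genes in 5 functional groups, and all 42 were found among the 21944 genes of the deposited table, each at 3, 6 and 24 h. The study asked how the matrix under a pancreatic progenitor affects its fate. Human embryonic stem cells were first differentiated to the late pancreatic progenitor stage, which all samples share. These progenitors were detached with accutase and reseeded on the laminin isoform LN411 or on fibronectin (FN). They were harvested for poly(A) RNA sequencing 3, 6 or 24 h later. This gave 6 groups of 3 samples, 18 in all: LN411 and FN at each of the 3 times, with FN as the comparison matrix. The labels name no further treatment and no gene change in any group beyond the reporter named next. The sample labels name the embryonic stem cell line HUES4, whereas their growth protocol names cells derived from the line SA121 with a NEUROG3 reporter (NGN3-GFP), the line that the study's own account of this experiment also gives. The labels do not say whether the 3 samples of a group were separate cultures, and the study calls them biological replicates.

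Actin monomers add to filament ends far more readily than they start a new filament, so cells control nucleation. The Arp2/3 complex starts branches on the side of existing filaments when WAVE or N-WASP activates it, whereas formins start and lengthen unbranched filaments and stay on the growing end. Thymosins hold monomers in reserve, profilins deliver them to growing ends, capping protein closes those ends, and cofilin severs old filaments and returns their monomers to the pool. Actin filaments anchor the adhesions through which a cell pulls on its matrix, here LN411 or FN.

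The measurement used for every gene was the mean normalized count that the authors deposited, a single value per gene that was the same at the 3 times to within rounding. Because of that equality it was read as a pooled value over libraries on both matrices and at all times, though which libraries entered it is not stated. It comes with no spread between replicates, no standard deviation and no n, and the depth of each library is unknown. The difference between LN411 and FN was therefore not analysed here for any of the 42 genes. What follows describes how much of each transcript these reseeded progenitors held, with no test, and a difference between genes is a difference between pooled values without an error. Since a long transcript yields more reads than a short one, levels are given as the mean normalized count per kilobase of the gene's canonical transcript, here shortened to counts per kb. In RNA from a whole culture, fewer cells expressing a gene and less RNA per cell cannot be told apart.

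Progenitor markers were present at high levels in the pooled data. GP2, a surface marker of pancreatic progenitors, stood at 40743 counts per kb, SOX9 at 5259 and PDX1 at 4969, whereas the acinar regulator PTF1A stood at 8.10. Among endocrine genes, NEUROG3 had 289 counts per kb and CHGA 2172. Of the hormone genes, SST had 958, INS 17.9 and GCG 14.5. The endothelial markers PECAM1, CDH5, KDR and TEK lay between 1.26 and 11.0 counts per kb. Of the mesenchymal list, COL1A2 stood at 8894 counts per kb and COL1A1 at 692, with PDGFRA, LUM and COL3A1 between 58.3 and 136. Of the pluripotency list, LIN28A stood at 2599 and DPPA4 at 134, and POU5F1 and NANOG were not analysed here. The part of these markers' sources in the actin gene levels was not tested.

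Most actin genes ranked high among all genes. The median of the 42 genes was 1196 counts per kb against 115 for the 21861 genes with a known transcript length, and 39 of the 42 lay above that overall median. Of the 42, 17 (40.5%) were in the top 10% of all genes. Levels ran from 25.5 counts per kb for the Arp2/3 subunit ARPC1B to 121877 for TMSB10, a 4773-fold span. When each gene's whole count was divided by its bases shared with no other gene, the span was 2243-fold and DIAPH2 was lowest at 55.4. Every level given over unshared bases is such a whole count divided by the unshared length, not reads counted there. Such a level holds only if no read in shared bases was counted, which was not tested. The 3 genes under the overall median were ARPC1B and the formins FMNL3 and DIAPH2. DIAPH3, FHOD1, CFL2 and SSH1 also lay under the protein-coding median of 320.

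**Figure D1:**
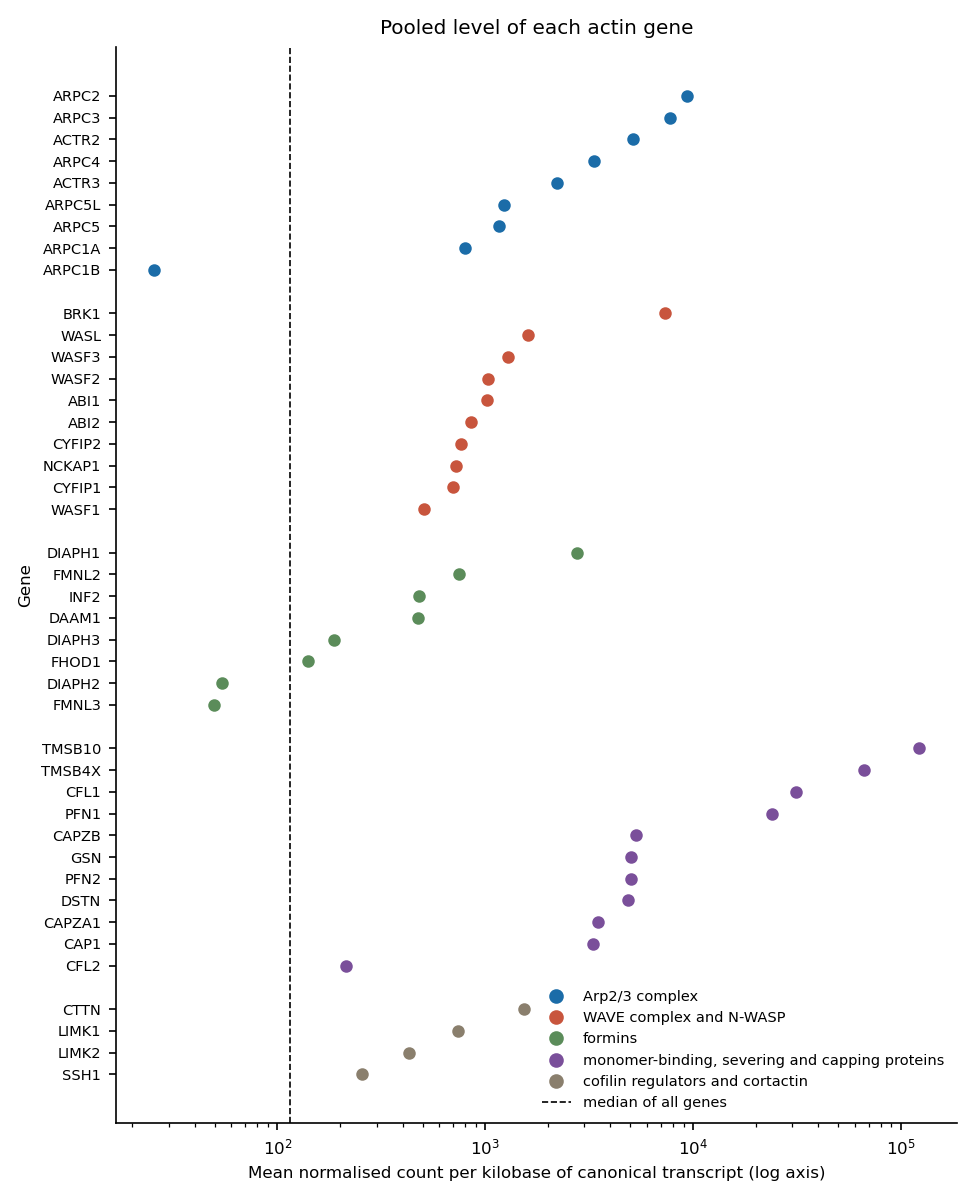
Mean normalized count per kilobase of canonical transcript (log axis) for each of the 42 actin genes, ordered within 5 functional groups; each point is the authors' pooled value, without an error, and the dashed line is the median of all genes (115). TMSB10, TMSB4X, CFL1 and PFN1 stand to the right of all other points, and ARPC1B, FMNL3 and DIAPH2 are left of the dashed line.

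The proteins that bind monomers, sever filaments or cap their ends held most of the transcript. These 11 genes made up 83.2% of the summed level per kb of the 42, the 9 Arp2/3 genes 9.53%, the 10 genes of the WAVE complex with N-WASP 4.87%, the 8 formins 1.503%, and the 4 cofilin regulators and cortactin 0.911%. The order of the group medians was the same at the top, with 5049 counts per kb for the monomer-binding, severing and capping proteins and 2207 for Arp2/3. The WAVE group followed at 937, then the cofilin regulators with cortactin at 585 and the formins at 331. Without dividing by length the first group still held the largest share, 55.8%, and without the thymosins it held 60.2%.

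The thymosins were the most abundant transcripts of the list. TMSB10, which encodes thymosin beta-10 (chr2:84905656-84906671 of GRCh38, plus strand), had a mean normalized count of 56185 and 121877 counts per kb, percentile 99.95 of all genes. TMSB4X, which encodes the related thymosin beta-4 (chrX:12975110-12977227, plus strand), had a mean normalized count of 41127 and 66120 counts per kb. Together the pair summed to 187998 counts per kb, 117% of the 160506 summed over ACTB and ACTG1, the cytoplasmic actins whose monomers they hold. Without division by length the thymosins came to 32.7% of those actins (97312 against 297468), and to 209% over all annotated exons. The TMSB4X level rests on its short canonical transcript, and divided by all annotated exons it was 24150 counts per kb, while TMSB10 did not move. Both messages are very short, 461 bases for TMSB10 and 622 for TMSB4X, with a coding sequence of 135 bases each. These coding sequences are shown whole, from the reference genome and 5′ to 3′, because the pair ranks first and its reads must be told apart; capitals mark the 37 positions at which they differ.
TMSB10: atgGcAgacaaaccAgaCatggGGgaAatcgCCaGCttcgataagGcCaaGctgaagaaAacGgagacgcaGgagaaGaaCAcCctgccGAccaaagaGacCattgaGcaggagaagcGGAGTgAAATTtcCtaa
TMSB4X: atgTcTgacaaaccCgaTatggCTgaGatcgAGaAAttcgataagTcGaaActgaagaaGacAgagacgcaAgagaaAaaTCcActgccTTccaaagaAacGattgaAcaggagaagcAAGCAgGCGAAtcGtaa

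The coding sequences were 72.6% identical, and the longest stretch without a difference was 10 bases. Near-identical copies elsewhere in the genome were a feature of TMSB4X rather than of TMSB10. A processed pseudogene on chromosome 4, TMSB4XP8, matched all 622 bases of the TMSB4X transcript at 98.4% identity, and no other member had a copy of at least 75 bases and 98% identity over more than 6.11% of its transcript. Reads that fit the gene and the copy equally well go uncounted in the authors' scheme, and the size of that loss was not tested. The listed pseudogene TMSB4XP4 had a mean normalized count of 23.0, 0.0559% of that of TMSB4X.

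Cofilin and profilin came next, with CFL1 and PFN1 the higher gene of each family. CFL1, the cofilin of non-muscle cells (chr11:65823022-65862026, minus strand), had 31429 counts per kb, and CFL2, the form known from muscle (chr14:34709113-34714823, minus strand), had 214, so that CFL1 was 147-fold higher, or 35.7-fold over all annotated exons. Destrin, encoded by DSTN (chr20:17570075-17609919, plus strand), is the relative best known for taking apart filaments into monomers, and it had 4884 counts per kb, 6.44-fold under CFL1. Divided by all annotated exons instead, CFL1 had 6672 counts per kb, DSTN 4570 and CFL2 187, in the same order. The first 60 coding bases of the 3 genes show how far these paralogs differ at the sequence level; capitals mark positions at which they are not all alike.
CFL1: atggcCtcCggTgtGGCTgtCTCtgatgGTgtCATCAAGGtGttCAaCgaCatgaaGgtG
CFL2: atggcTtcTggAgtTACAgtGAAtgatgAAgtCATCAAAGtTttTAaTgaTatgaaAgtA
DSTN: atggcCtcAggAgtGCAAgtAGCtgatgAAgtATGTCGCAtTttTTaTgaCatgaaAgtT

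Over these 60 bases CFL2 differed from CFL1 at 18 positions and DSTN at 23. Across their whole coding sequences of 501 bases, CFL1 and CFL2 were 70.1% identical. The only listed pseudogene of the family by the naming rule used, DSTNP2, had a mean normalized count of 279, which is 1.68% of that of DSTN (16629). Summed, the cofilins and destrin reached 36526 counts per kb, 22.8% of the summed cytoplasmic actins.

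PFN1, the widely expressed profilin, had 23886 counts per kb, and PFN2, known from neurons, had 5017, a 4.76-fold difference that was 1.88-fold without division by length. The summed profilins came to 18.01% of the summed actins. GSN, the calcium-activated severing protein gelsolin, had 5049 counts per kb, but 1185 over all annotated exons and 2030 over the longest transcript. CAP1, which helps cofilin take apart filaments and recharges monomers with ATP, had 3308. The heterodimer that caps growing ends is made of an alpha and a beta chain in equal number, and CAPZB (beta) had 5319.9 counts per kb against 3478 for CAPZA1 (alpha). That order is not robust, since the beta gene was the lower of the pair when all annotated exons (467 against 2347) or the longest transcript (1442 against 3478) gave the length. The pair also leaves out a second alpha gene, CAPZA2, which had 1288 counts per kb. Without division by length the mean normalized counts were 8911 for CAPZB, 8202 for CAPZA1 and 6527 for CAPZA2. Apart from CFL2, at percentile 58.1, the 11 genes of this group were all in the top 10% of genes over canonical lengths.

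**Figure D2:**
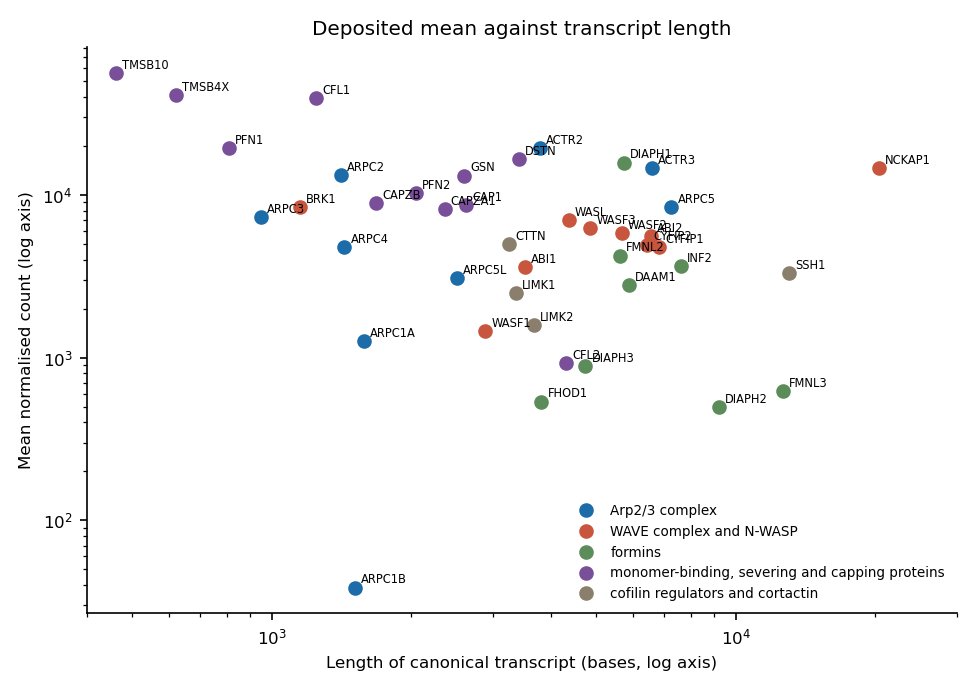
Mean normalized count as deposited (log axis) against the length of the canonical transcript in bases (log axis) for the 42 genes, coloured by functional group. The thymosins, CFL1 and PFN1 combine high counts with short transcripts, whereas NCKAP1 reaches a similar count to ACTR3 over a transcript of 20332 bases.

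Short transcripts carried the highest levels in this list. Across the 42 genes, Spearman's rank correlation between transcript length and mean normalized count was -0.34, whereas across the 21861 genes it was 0.46. This is a description over genes that share the same libraries, and genes are not independent replicates. Division by length widens the gap between the short thymosins and the long formins, and the deposited counts themselves already placed TMSB10, TMSB4X and CFL1 first, followed by ACTR2 and PFN1.

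Every subunit of the Arp2/3 complex was represented, at unequal levels. The complex holds 7 subunits in equal number, namely the actin-related proteins ARP2 (ACTR2) and ARP3 (ACTR3) and 5 scaffold subunits, of which ARPC1 and ARPC5 each have alternative genes. ARPC2 and ARPC4 form its core, and they had 9335 and 3346 counts per kb. ARPC3, a subunit next to ARP3, had 7741. Over all annotated exons ARPC2 and ARPC3 had 2020.4 and 2419 counts per kb, under the 4815 of ACTR2. ACTR2 had 5143 and ACTR3 2207, a 2.33-fold difference between the partners that form the first unit of the new branch. That difference was 1.338-fold without division by length and 3.96-fold over all annotated exons. The alternative genes ARPC5 and ARPC5L had 1163 and 1229 counts per kb, which is a near-even split, and they summed to 2391. Their order depended on length, because ARPC5 has a transcript of 7266 bases and a mean normalized count of 8447 against 3081 for ARPC5L.

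The ARPC1 position was the lowest of the 7. ARPC1A had 800 counts per kb (mean normalized count 1265) and ARPC1B 25.5 (38.6), so that the position summed to 825 counts per kb. The other 6 positions lay between 2207 and 9335, a 4.23-fold range that widened to 11.3-fold with ARPC1 included. ARPC1B stood at percentile 30.5 of all genes and was the lowest of the 42 over canonical lengths, though not over unshared bases, of which it has 75.

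**Figure D3:**
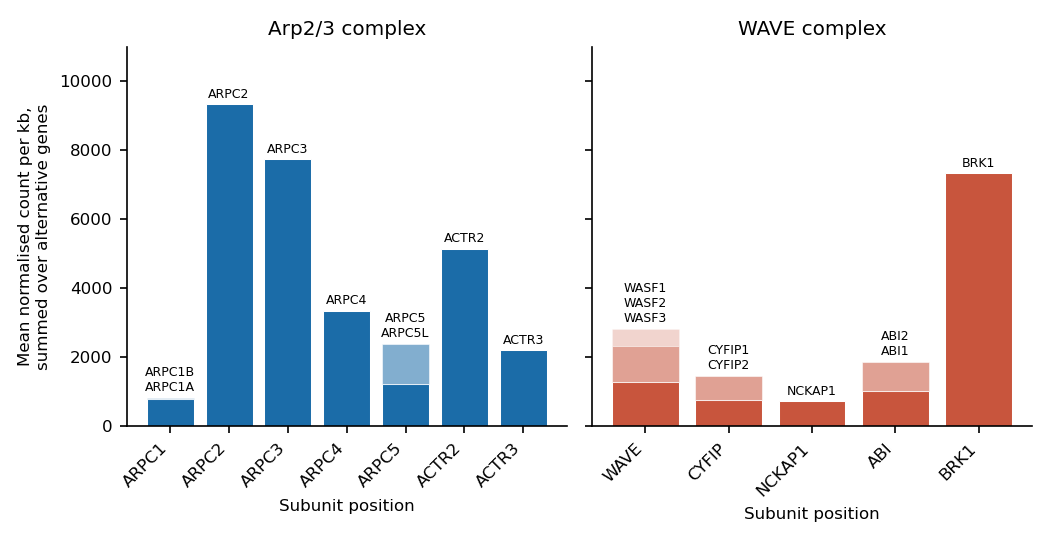
Mean normalized count per kb for each subunit position of the Arp2/3 complex (left) and the WAVE complex (right); bars start at 0, alternative genes of a position are stacked, with the highest at the bottom, and no error is available. ARPC1 is the lowest Arp2/3 position at 825, and BRK1 is the highest WAVE position at 7345.

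ARPC1A (chr7:99325898-99366262) and ARPC1B (chr7:99374249-99394816) are neighbours on the plus strand, and in the annotation used here (GENCODE 44 on GRCh38) a protein-coding read-through gene with no symbol, ENSG00000284292, spans both (chr7:99325879-99394653). It shares 1210 of the 1582 bases of the canonical ARPC1A transcript (76.5%) and 1292 of the 1511 bases of that of ARPC1B. A further 144 bases at the end of ARPC1B lie in an exon of PDAP1 on the opposite strand, leaving 75 unshared bases. Those 75 bases lie in separate short pieces, so few reads could fall in them without touching shared bases. The authors' counting mode leaves out a read that overlaps exons of more than 1 gene, and they counted on GENCODE 32. Whether that version held the read-through gene, and whether this set the low values, was not tested. Divided by unshared bases alone, the levels were 3400.3 counts per kb for ARPC1A and 514 for ARPC1B, and the ARPC1 position summed to 3915, within the range of the other positions. ARPC1A stayed above ARPC1B, by 31.3-fold over the canonical lengths and by 6.61-fold over the unshared bases, where the ARPC1B level is a weak estimate.

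**Figure D4:**
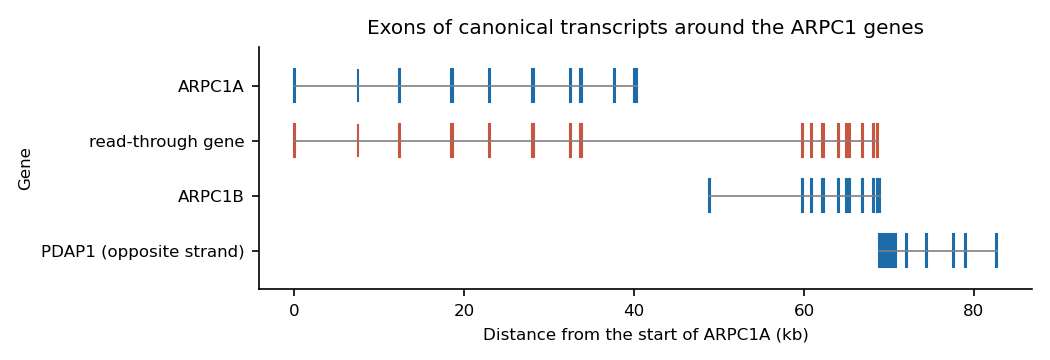
Exons (boxes) of the canonical transcripts of ARPC1A, ARPC1B, the read-through gene between them and PDAP1, against distance in kb from the start of ARPC1A; lines join the exons of a gene. The first 8 exons of ARPC1A and the exons of ARPC1B from the second onward line up with exons of the read-through gene.

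The first 60 coding bases of the ARPC1 genes differ at 21 positions, marked in capitals, and what the pair shares with the read-through gene lies in annotated exons, not in similar sequence.
ARPC1A: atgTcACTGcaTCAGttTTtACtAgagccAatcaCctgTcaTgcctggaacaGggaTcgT
ARPC1B: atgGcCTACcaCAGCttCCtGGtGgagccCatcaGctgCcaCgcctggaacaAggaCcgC

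ARPC4 shares 541 of its 1433 bases (37.8%) with a read-through gene of its own, ARPC4-TTLL3. Its whole count divided by its unshared bases gave 5376 counts per kb. Across protein-coding genes of the table, the 285 with at least 50% of the canonical transcript in exons of a read-through gene had a median of 72.3 counts per kb, against 320 for the 14626 with under 10%. The interquartile ranges, 19.1 to 332 and 53.0 to 940, overlapped.

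The activators of Arp2/3 lay between 506 and 1604 counts per kb, BRK1 excepted. WASL, which encodes N-WASP, had 1604 counts per kb. The WAVE complex holds 1 copy each of a WAVE protein, a CYFIP, NCKAP1, an ABI and BRK1, and in it the WAVE protein is kept inactive until Rac binds. Among the WAVE genes, WASF3 had 1288 counts per kb, WASF2 1026 and WASF1 506, so that no single paralog dominated. WASF3 shares 40.7% of its transcript with an antisense long non-coding gene, and its whole count divided by unshared bases gave 2172 counts per kb.

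The CYFIP genes, which carry the Rac-binding subunit, were nearly level, with 767 counts per kb for CYFIP2 and 702 for CYFIP1. Because 33.9% of the CYFIP1 transcript overlaps NIPA2 on the opposite strand, the order turned when unshared bases were used, with 1061 for CYFIP1 and 790 for CYFIP2. ABI1 had 1020.4 and ABI2 854 counts per kb. NCKAP1, a large scaffold subunit, had the highest mean normalized count of the group, 14662, and a level of 721 counts per kb, since its canonical transcript has 20332 bases of which 3387 are coding. BRK1, the smallest subunit with 228 coding bases, had 7345 counts per kb, 46.4% of the group's sum. Across the 5 positions of the complex the levels ranged 10.2-fold, from NCKAP1 to BRK1.

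Formins were led by a single gene. DIAPH1, which lengthens unbranched filaments (chr5:141515016-141619055, minus strand), had 2751 counts per kb, 56.3% of the sum of the 8 formins and stood at percentile 94.2 of all genes. FMNL2, known from the leading edge, followed with 752, then INF2, which can also sever filaments, with 479.6 and DAAM1, which acts in planar cell polarity signalling, with 475. DIAPH3 had 187, FHOD1, linked to stress fibres, had 141, DIAPH2 had 54.2 and FMNL3 had 49.5. DIAPH1 was 14.7-fold above DIAPH3 and 50.8-fold above DIAPH2, and FMNL2 was 15.2-fold above FMNL3. These 3 ratios kept their direction under every length tried, although FMNL2 was 6.78-fold above FMNL3 without division by length. The lowest formin was FMNL3 over canonical lengths and DIAPH2 over unshared bases or without division by length. FMNL3 itself overlaps PRPF40B on the opposite strand over 20.9% of its transcript, and its whole count divided by unshared bases gave 62.6 counts per kb.

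Set side by side, the order of formins and Arp2/3 depended on how Arp2/3 was counted. Formins summed to 4890 counts per kb over 8 genes, 3.05% of the summed cytoplasmic actins, and ARP2 with ARP3 summed to 7350 counts per kb, 4.58%. The second sum adds subunits of the same complex, whereas the first adds separate nucleators. The formin sum lay above ACTR3 alone (2207) and under ACTR2 alone (5143). Without division by length the formin sum was above each of them, with 29018 against 14539 for ACTR3 and 19457 for ACTR2. The single gene DIAPH1 lay above ACTR3 and under ACTR2. A level of transcript is not an amount of protein, and these pooled values carry no error.

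The listed genes that control cofilin lay far under CFL1, the main cofilin gene, in counts per kb. LIMK1 and LIMK2, kinases that switch cofilin off by phosphorylation, had 738 and 431 counts per kb, a 1.71-fold difference. SSH1, a phosphatase that switches it back on, had 254. CTTN, which encodes cortactin, a protein that holds Arp2/3 branches in place, was the highest of the 4 at 1541 counts per kb. All 4 lay between percentiles 60.6 and 89.0 of all genes. This group leaves out the SSH1 relatives SSH2 and SSH3. SSH3 had 699 counts per kb, above SSH1, and SSH2 had 244, slightly under it.

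**Figure D5:**
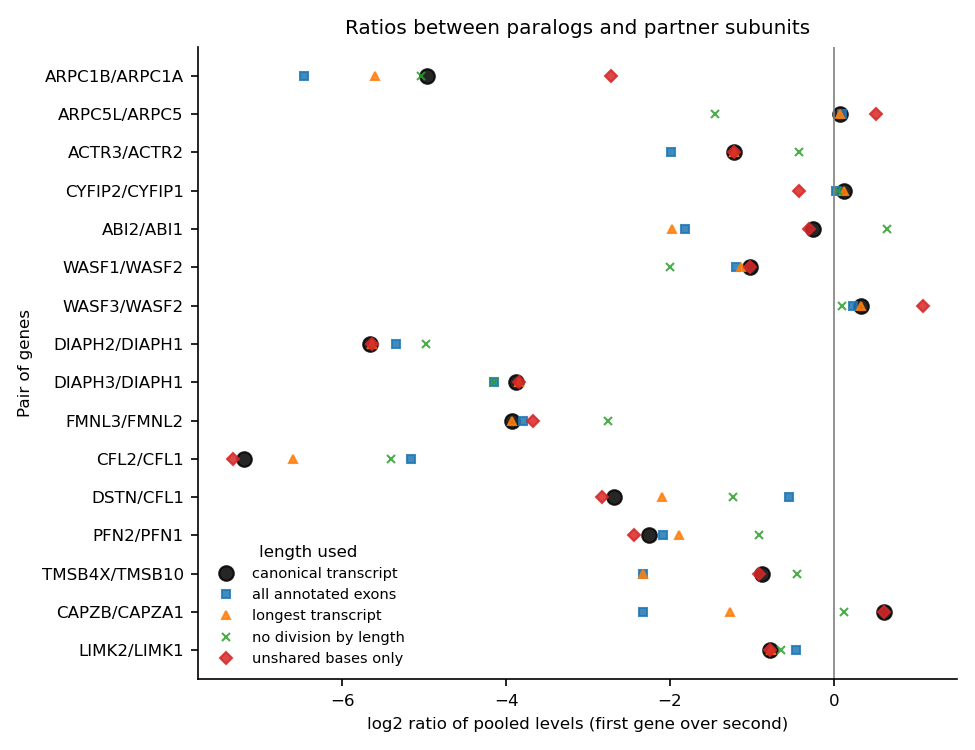
Ratio of pooled levels (log2, first gene over second) for 16 pairs of paralogs or partner subunits; symbols mark the length by which counts were divided, and no error is available. ARPC5L/ARPC5, CYFIP2/CYFIP1, ABI2/ABI1 and CAPZB/CAPZA1 have symbols on both sides of 0, and the other 12 pairs keep their sign.

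Of the 16 pairs compared, 12 kept the same gene on top under all 5 ways of treating length. These included the largest ratios, CFL1 over CFL2, DIAPH1 over DIAPH2 and ARPC1A over ARPC1B. The 4 pairs whose order turned had ratios between 1.06- and 1.53-fold over the canonical lengths.

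Other actin regulators, 71 genes fixed as a list for comparison, were mostly less abundant. Of the 67 analysed, 12 lay above the median of the 42 genes (1196 counts per kb) and 55 at or under it, with a median of 221. The median percentile of the 42 among all genes was 85.8, so most genes of any kind also lie under that level. The median of all genes, which include non-coding genes and pseudogenes, was 115 counts per kb, under that of the 67. Protein-coding genes with under 10% of the transcript in exons of a read-through gene had a median of 320, above that of the 67. The top 3 of the 67 were ACTB (98529 counts per kb), ACTG1 (61977) and WDR1 (5762), the cofactor with which cofilin takes filaments apart. TMSB10 stood above ACTB, and TMSB4X above ACTG1, in counts per kb of canonical transcript. Without division by length both orders were the opposite, with mean normalized counts of 178535 for ACTB and 118933 for ACTG1, and over all annotated exons TMSB4X (24150) was under ACTG1 (29352).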

How the data were processed

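Poly(A) RNA from 18 samples (LN411 and FN, 3 each at 3, 6 and 24 h) was sequenced by the authors with a kit that does not mark strand. Per the study's methods, the authors aligned reads to GRCh38 with STAR (2.7.2d), counted uniquely mapped reads per gene on GENCODE 32, and normalized with DESeq2 (1.34.0). The strand setting is not given in the sources used here. The deposited signal used here is the authors' mean normalized count per gene, equal at the 3 times. The file does not say which libraries entered it. The deposited table has no values per sample (0 columns could be matched to a sample), so library depth and replicate spread are unknown and the planned count test of LN411 against FN was not run. Its other columns hold the authors' own comparison of LN411 with FN at each time (log2 fold change, standard error, statistic, p and adjusted p) and were not used.

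From the mean, levels per kilobase were computed in Python (3.11.15, pandas 2.3.3) over canonical transcripts of GENCODE 44, a newer annotation of the same assembly, for 21861 of 21944 genes (99.6%) matched by Ensembl ID. Exons shared with other genes were counted on both strands. Near-identical copies were sought with BLAST (2.17.0) in the reference genome, outside each gene, as alignments of at least 75 bases at 98% identity or more. Functional groups, paralog pairs, the list of other regulators and the markers were chosen with earlier results of these data known. The named genes are all 42 members, the top 3 other regulators and the most abundant pseudogene bearing each member's symbol. CAPZA2, SSH2 and SSH3 were named in addition, as relatives of members. Alternative lengths (all annotated exons, longest transcript, none, unshared bases) were tried, the last chosen after seeing the data. Shares were also taken without the thymosins and, after seeing the data, without ARPC1A, ARPC1B and ARPC4. The thymosins were set against the actins under each length, also after seeing the data. The scripts were tested on simulated data.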

Additional observations from a re-analysis of the deposited data

How the results depend on the processing

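The shares of the 5 groups in the summed level per kb moved by under 1.5 times when all annotated exons or unshared bases gave the length, and when ARPC1A, ARPC1B and ARPC4 were left out. The last 2 choices were made after seeing the data. Without division by length, Arp2/3 held 18.1%, the WAVE group 15.7%, the formins 7.28% and the cofilin regulators with cortactin 3.11%. Without the thymosins these shares were 22.6%, 11.5%, 3.56% and 2.16%. The order of 4 pairs turned: the log2 ratio of ARPC5L to ARPC5 was -1.46 and that of ABI2 to ABI1 0.64 without division by length, CYFIP2 to CYFIP1 was -0.42 over unshared bases, and CAPZB to CAPZA1 was -2.33 over all annotated exons and -1.27 over the longest transcript. Levels of 20 genes moved by over 1.5 times with all annotated exons, 7 with the longest transcript and 5 with unshared bases. The median percentile of the 42 genes was 85.8 among all genes and 83.9 among the 19329 with a mean of at least 10. No paired analysis was possible because the table holds no values per sample. For the same reason other size factors, no filter on low counts and leaving out each replicate were not run for LN411 against FN. Without replicate values, no error stands behind any level, and small ratios cannot be told from 1.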
